A study of Mus musculus with 11 samples.

Results

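The hepatic serpins are 9 named genes of plasma proteins that hepatocytes secrete. A gene entered through the probe set annotated to its symbol alone, and 8 of the 9 had one on the array, among 19938 genes measured in this way. No probe set was named for Serpina3k, which was not analysed here. The 8 are Serpina3n, Serpina10, Serpina6, Serpina7, Serpinc1, Serpind1, Serpinf2 and Serping1, each with a single probe set. RNA came from tumour-free liver of male mice aged 14 months, hybridised to Affymetrix arrays. The Mdr2-KO/IL6-KO group (n = 4 arrays) lacked both Mdr2 and interleukin 6, the Mdr2-KO group (n = 4) lacked Mdr2, and the WT group (n = 3) was C57BL/6. Both knockout groups therefore share the loss of Mdr2, the product of Abcb4, which exports phosphatidylcholine into bile. The labels record a strain for the WT arrays only, so that strain background and genotype cannot be told apart in the comparisons with WT. They do not state that each array was a separate mouse, so the p-values reflect spread between samples that may be technical.

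Serpins fold into a metastable shape with an exposed loop. An inhibitory serpin offers this loop to a protease as bait, and cleavage traps the enzyme in an inactive complex. Some members have lost inhibition and use the same fold to carry hormones. In liver, serpins are known as a large share of secreted protein, and several are acute-phase genes that respond to interleukin 6 through STAT3. The 8 genes cover these roles: Serpina3n is the mouse relative of human alpha-1-antichymotrypsin and blocks leukocyte proteases, and Serpina6 and Serpina7 carry corticosteroids and thyroxine. Serpina10, Serpinc1 (antithrombin) and Serpind1 (heparin cofactor II) restrain coagulation, Serpinf2 is the main plasmin inhibitor, and Serping1 is C1 inhibitor.

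Promoter sequences, which RefSeq gives here for 5 of the 8 genes on build GRCm38.p6, are shown for 3 of them. Each runs 5′ to 3′ on the gene's strand from 250 bases before the annotated start to 50 bases after it. Serpina3n is shown because it was lower in both knockout groups, Serpina7 because its lowest group mean was in Mdr2-KO, and Serpinc1 as a gene with small differences among the groups. Capitals mark matches on either strand to TTCNNNGAA (a STAT site), CTGGGA (the core of an interleukin 6 response element) or GTTAAT (an HNF1 half-site), which share no bases in these windows.
Serpina3n, plus strand, chr12:104406458-104406757: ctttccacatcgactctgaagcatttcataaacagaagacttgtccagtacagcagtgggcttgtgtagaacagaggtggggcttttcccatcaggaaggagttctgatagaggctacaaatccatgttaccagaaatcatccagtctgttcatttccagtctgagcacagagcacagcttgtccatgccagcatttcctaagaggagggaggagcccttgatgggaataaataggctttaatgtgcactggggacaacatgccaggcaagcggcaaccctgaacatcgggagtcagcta
Serpina7, minus strand, chrX:139085187-139085486: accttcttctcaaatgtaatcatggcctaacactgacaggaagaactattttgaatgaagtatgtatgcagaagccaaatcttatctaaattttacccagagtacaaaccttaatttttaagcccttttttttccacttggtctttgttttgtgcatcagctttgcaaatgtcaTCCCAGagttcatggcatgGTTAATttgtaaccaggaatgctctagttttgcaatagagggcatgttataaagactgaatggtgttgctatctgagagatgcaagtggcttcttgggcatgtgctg
Serpinc1, plus strand, chr1:160978333-160978632: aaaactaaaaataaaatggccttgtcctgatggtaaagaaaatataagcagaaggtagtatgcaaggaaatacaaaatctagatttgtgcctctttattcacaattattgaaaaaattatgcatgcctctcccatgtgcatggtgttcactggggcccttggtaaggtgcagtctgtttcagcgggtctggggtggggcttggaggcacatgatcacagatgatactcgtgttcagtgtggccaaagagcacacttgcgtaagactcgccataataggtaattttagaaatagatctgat
The Serpina7 window held CTGGGA, read on the opposite strand, beginning at base -76, and GTTAAT at base -57, counted from the start site; the table's other start for this gene gives the same matches. None of the 3 letter strings occurred in the Serpina3n, Serpinc1 or Serpinf2 windows, and Serpind1 held 1 CTGGGA. Among all 32851 promoters in the table, 8.30% held the STAT string, 31.8% the CTGGGA core and 7.10% the HNF1 half-site. These matches describe letters only.

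The labels were checked on the deleted genes. Abcb4 had log2 levels of 7.83 to 8.32 in Mdr2-KO/IL6-KO, 7.54 to 7.98 in Mdr2-KO and 9.74 to 9.95 in WT livers, and it was lower in both knockout groups (limma adjusted p = 6.75e-06 and 2.22e-06). Il6 read 1.62 to 2.09 over all 11 arrays, near the bottom of the scale, and checks nothing. Mdr2-KO replicates 2 and 3 had the lowest weights by limma's array weights, 0.424 and 0.570 against 0.885 to 1.74 on the other arrays. Hepatocyte markers (12 of 15 measured) had summed log2 levels of 147.4 to 149.1 in Mdr2-KO/IL6-KO, 148.1 to 149.8 in Mdr2-KO and 148.5 to 149.8 in WT livers, and the dimmest of them, Arg1, averaged 11.1. Bile duct markers (9 of 12 measured) summed to 51.4 to 55.4, 52.3 to 53.2 and 45.4 to 46.8 in that order, and stellate cell markers (12 of 12) to 89.0 to 92.6, 88.4 to 90.2 and 81.7 to 84.8. Both of these lists lay higher in every knockout array than in WT, with 4 and 6 genes called higher in each knockout group, while the hepatocyte sums overlapped between groups. Of the 12 hepatocyte markers taken singly, 7 did not overlap in Mdr2-KO/IL6-KO against WT, 5 of them lower. Over all genes these shares were 16.3% and 6.44%. Endothelial markers (12 of 12) summed to 89.0 to 90.8, 87.6 to 89.2 and 84.1 to 87.2, with 3 called higher in Mdr2-KO/IL6-KO and 1 in Mdr2-KO against WT. Kupffer cell markers (12 of 12) summed to 87.8 to 89.7, 85.6 to 91.4 and 80.2 to 92.2, with 1 called higher in each. Over all genes 2.91% were called higher in Mdr2-KO/IL6-KO against WT and 0.948% in Mdr2-KO against WT. None of these cell markers was listed at 0. The part that cell makeup has in the serpin values was not tested. In bulk liver, fewer hepatocytes and less RNA per hepatocyte cannot be told apart.

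Across the genes, Serpina3n fell in both knockout groups against WT, and Serpina10 and Serpina6 fell in Mdr2-KO/IL6-KO livers. The coagulation inhibitors Serpinc1 and Serpind1 were not called in any comparison. A limma model of all 11 arrays was fitted across the 19938 genes, and a gene was called at a Benjamini-Hochberg adjusted p under 0.05. In Mdr2-KO/IL6-KO against WT, 3 of the 8 serpins fell and none rose, where 4.19% of all genes were called, 1.28% lower and 2.91% higher. Mdr2-KO against WT gave 1 of 8 lower, where 1.26% of all genes were called, 0.316% lower and 0.948% higher. Between Mdr2-KO/IL6-KO and Mdr2-KO limma called 0 of 8, where 0.00502% of all genes were called lower. At an unadjusted p under 0.05 by limma in that last comparison 3 of 8 were lower and 0 higher. Of all 19938 genes 4.82% passed that mark in either direction, 406 lower and 555 higher. The median log2 change over the 8 was -0.41, -0.27 and -0.16 in these comparisons, and over all genes it was -0.00056, -0.0056 and 0.0099. Each pair of these comparisons shares the arrays of 1 group.

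**Figure D1:**
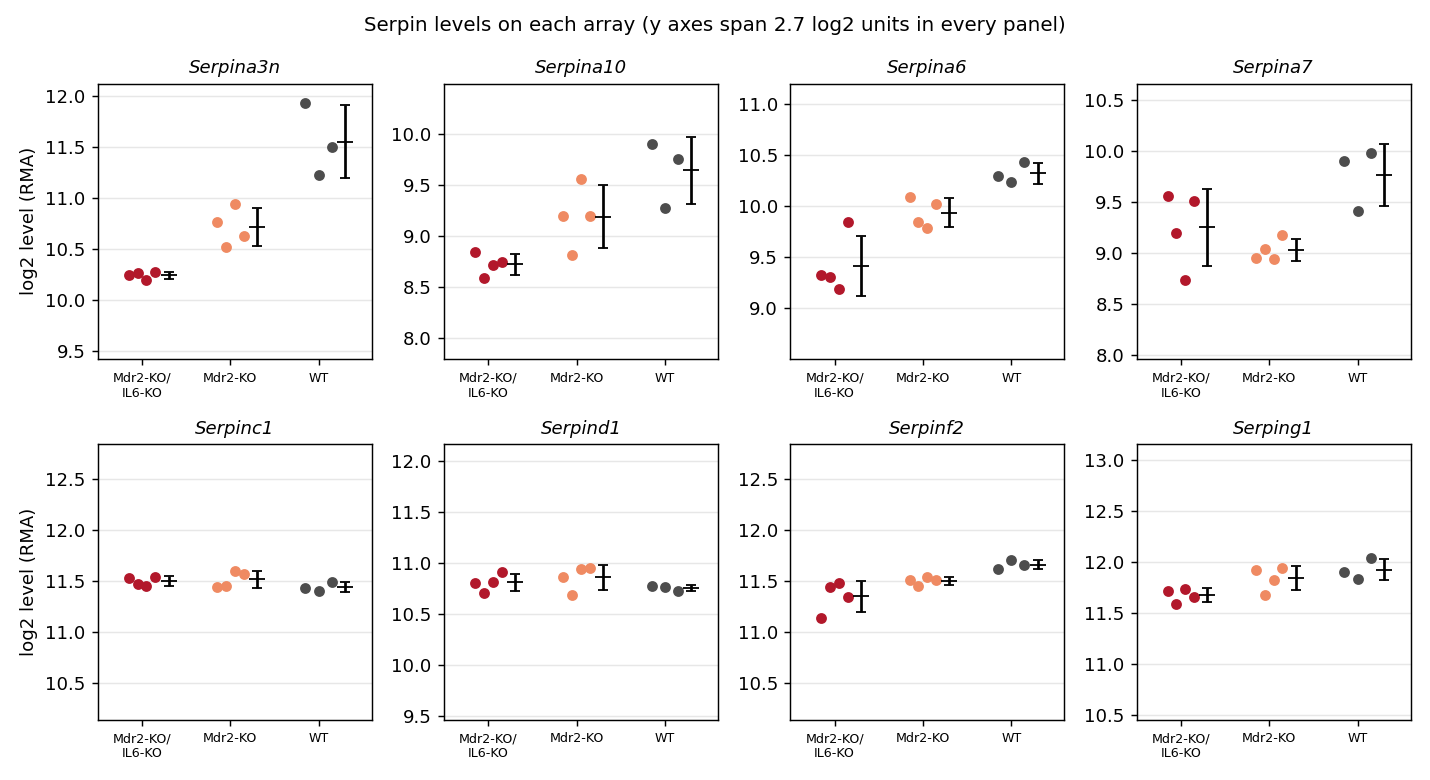
Log2 level of each serpin (y axis, 2.7 log2 units in every panel) on each array, with groups along the x axis and the mean ± SD in black beside the points (n = 4, 4 and 3). All Mdr2-KO/IL6-KO arrays of Serpina3n sit at 10.20 to 10.28, below the Mdr2-KO arrays at 10.52 to 10.94 and the WT arrays at 11.23 to 11.93, whereas the groups of Serpinc1 and Serpind1 overlap.

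Serpina3n (probe set 10398075, chromosome 12) is induced by interleukin 6 type cytokines and inhibits leukocyte elastase and granzyme B in mice. Its log2 levels were 10.24, 10.27, 10.20 and 10.28 on the Mdr2-KO/IL6-KO arrays, 10.77, 10.52, 10.94 and 10.63 on the Mdr2-KO arrays, and 11.93, 11.23 and 11.50 on the WT arrays. No array of any group overlapped another group, and the spread narrowed to an SD of 0.033 in Mdr2-KO/IL6-KO, against 0.18 in Mdr2-KO and 0.36 in WT; the difference in spread was not tested. Serpina3n fell 2.47-fold in Mdr2-KO/IL6-KO against WT (log2 change -1.31 ± 0.14 SE, limma adjusted p = 0.000226). In Mdr2-KO it fell 1.79-fold against WT (log2 change -0.84 ± 0.14 SE, limma adjusted p = 0.0108). This second call ended in an unmoderated model (adjusted p = 0.102) and when only these 2 groups were fitted by limma (adjusted p = 0.0659). Between Mdr2-KO/IL6-KO and Mdr2-KO the log2 change was -0.47 (95% interval -0.76 to -0.18) and did not pass over all genes (limma adjusted p = 0.774). It was the only one of the 8 whose arrays did not overlap in that comparison, where 2.51% of all genes did not overlap, 0.908% lower and 1.6% higher.

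The hormone carriers Serpina6 and Serpina7 had different orders of group means. Serpina6 (probe set 10402368, chromosome 12) encodes corticosteroid-binding globulin, which holds most circulating corticosterone in mice. Its log2 levels were 9.33, 9.30, 9.19 and 9.84 in Mdr2-KO/IL6-KO, 10.09, 9.85, 9.79 and 10.03 in Mdr2-KO, and 10.30, 10.24 and 10.44 in WT livers. Mdr2-KO/IL6-KO replicate 4 lay among the Mdr2-KO arrays, and all 8 knockout arrays lay below all WT arrays. Serpina6 fell 1.88-fold in Mdr2-KO/IL6-KO against WT (log2 change -0.91 ± 0.14 SE, limma adjusted p = 0.0024). In Mdr2-KO against WT the log2 change was -0.38 (95% interval -0.69 to -0.082, limma adjusted p = 0.322). Between Mdr2-KO/IL6-KO and Mdr2-KO it was -0.53 (95% interval -0.81 to -0.24, limma adjusted p = 0.635), the largest of the 8 in that comparison. Without Mdr2-KO/IL6-KO replicate 4 this value was -0.67 and its adjusted p, 0.0668, was the lowest of the 11 fits that each left out 1 array.

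Serpina7 (probe set 10606928, X chromosome) encodes thyroxine-binding globulin, a plasma carrier of thyroid hormone. It read 9.56, 9.20, 8.74 and 9.51 in Mdr2-KO/IL6-KO, 8.96, 9.04, 8.94 and 9.18 in Mdr2-KO, and 9.91, 9.42 and 9.98 in WT livers. The Mdr2-KO arrays all lay below WT. The Mdr2-KO/IL6-KO arrays ran from 8.74 in replicate 3, below every Mdr2-KO array, to 9.56 in replicate 1, above only the lowest WT array at 9.42. No comparison passed. The log2 change was -0.51 ± 0.18 SE in Mdr2-KO/IL6-KO against WT (limma adjusted p = 0.165) and -0.74 ± 0.18 SE in Mdr2-KO against WT (limma adjusted p = 0.0804). The change in Mdr2-KO against WT passed without Mdr2-KO/IL6-KO replicate 3 (limma adjusted p = 0.0243) and with array weights (limma adjusted p = 0.0418). Between Mdr2-KO/IL6-KO and Mdr2-KO it was 0.22 (95% interval -0.14 to 0.59), the only one of the 8 with a positive sign. This value was 0.12 without Mdr2-KO/IL6-KO replicate 1, 0.14 without replicate 4 and 0.39 without replicate 3 of that group.

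Among the coagulation inhibitors, Serpina10 differed from Serpinc1 and Serpind1 in what was called. Serpina10 (probe set 10402360, chromosome 12) encodes the protein Z-dependent inhibitor of activated factor X. Its log2 levels were 8.85, 8.60, 8.71 and 8.74 in Mdr2-KO/IL6-KO, 9.19, 8.81, 9.56 and 9.20 in Mdr2-KO, and 9.91, 9.27 and 9.76 in WT livers. The Mdr2-KO/IL6-KO arrays all lay below WT, and the Mdr2-KO arrays overlapped both other groups, through replicate 2 at the low end and replicate 3 at the high end. Serpina10 fell 1.89-fold in Mdr2-KO/IL6-KO against WT (log2 change -0.92 ± 0.17 SE, limma adjusted p = 0.0068), a call that ended in the unmoderated model (adjusted p = 0.058). In Mdr2-KO against WT the log2 change was -0.45 (95% interval -0.82 to -0.092, limma adjusted p = 0.328). Between Mdr2-KO/IL6-KO and Mdr2-KO it was -0.47 (95% interval -0.80 to -0.13, limma adjusted p = 0.996).

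Serpinc1 (probe set 10351015, chromosome 1), antithrombin, inhibits thrombin and activated factor X with heparin as cofactor. It read 11.53, 11.47, 11.44 and 11.54 in Mdr2-KO/IL6-KO, 11.44, 11.45, 11.60 and 11.57 in Mdr2-KO, and 11.42, 11.40 and 11.49 in WT livers. Serpind1 (probe set 10433988, chromosome 16), a thrombin inhibitor activated by dermatan sulfate, read 10.80, 10.71, 10.81 and 10.90 in Mdr2-KO/IL6-KO, 10.86, 10.68, 10.94 and 10.95 in Mdr2-KO, and 10.77, 10.76 and 10.72 in WT livers. Both sets of values overlapped between all groups. For Serpinc1 the change in Mdr2-KO/IL6-KO against WT was 0.058 with a 95% interval of -0.11 to 0.23, and in Mdr2-KO against WT it was 0.076 with an interval of -0.094 to 0.24. The Serpind1 changes were 0.054 (95% interval -0.14 to 0.24) and 0.10 (95% interval -0.087 to 0.29). Between the knockout groups the intervals ran from -0.17 to 0.14 for Serpinc1 and from -0.23 to 0.13 for Serpind1.

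Serpinf2 and Serping1, the inhibitors of plasmin and of the complement C1 proteases, had negative log2 changes that were not called in any comparison. Serpinf2 (probe set 10388440, chromosome 11), alpha-2-antiplasmin, read 11.14, 11.44, 11.48 and 11.35 in Mdr2-KO/IL6-KO, 11.51, 11.45, 11.54 and 11.51 in Mdr2-KO, and 11.62, 11.71 and 11.66 in WT livers. All 8 knockout arrays lay below the WT arrays, with Mdr2-KO/IL6-KO replicate 1 the lowest. The log2 change was -0.31 in Mdr2-KO/IL6-KO against WT (95% interval -0.51 to -0.11, limma adjusted p = 0.083) and -0.16 in Mdr2-KO against WT (95% interval -0.36 to 0.038). The first of these passed with only the brighter genes tested (limma adjusted p = 0.0383), with array weights (0.0453) and with a trended robust variance (0.047).

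Serping1 (probe set 10484463, chromosome 2) encodes C1 inhibitor, which also blocks plasma kallikrein and activated factor XII. Its levels were 11.71, 11.59, 11.74 and 11.66 in Mdr2-KO/IL6-KO, 11.93, 11.68, 11.82 and 11.94 in Mdr2-KO, and 11.91, 11.83 and 12.04 in WT livers. The Mdr2-KO/IL6-KO arrays lay below WT, and the Mdr2-KO arrays overlapped both other groups. The log2 change was -0.25 in Mdr2-KO/IL6-KO against WT (95% interval -0.45 to -0.054, limma adjusted p = 0.179) and -0.084 in Mdr2-KO against WT (95% interval -0.28 to 0.11). Between the knockout groups the change was -0.15 (95% interval -0.34 to 0.031) for Serpinf2 and -0.17 (95% interval -0.35 to 0.015) for Serping1. In all, 5 of the 8 genes had arrays that did not overlap in Mdr2-KO/IL6-KO against WT, all lower, where 16.3% of all genes did not overlap, 6.44% lower and 9.85% higher. In Mdr2-KO against WT these were 4 of 8, all lower, where the share over all genes was 9.13%, 3.64% lower and 5.49% higher.

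**Figure D2:**
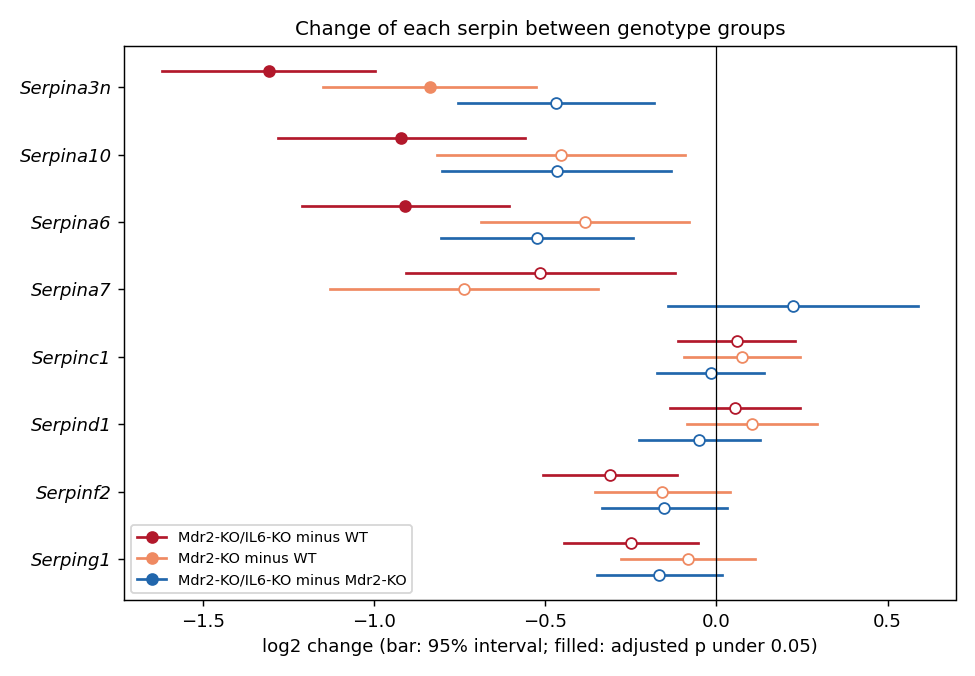
Log2 change of each serpin (x axis) in the 3 comparisons, with 95% intervals as bars and filled points for an adjusted p under 0.05. The filled points are Serpina3n in both comparisons with WT, at -1.31 and -0.84, and Serpina10 and Serpina6 in Mdr2-KO/IL6-KO against WT, at -0.92 and -0.91.

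The 8 genes did not move evenly across arrays within a group. Mdr2-KO replicate 2 was the lowest of its 4 arrays for 5 of the 8 genes, and Mdr2-KO replicate 3 the highest for 4. In WT, replicate 2 was the lowest array for 6 of 8. Among the Mdr2-KO/IL6-KO arrays replicate 3 was the lowest for 4 genes and replicate 4 the highest for 4. Mdr2-KO replicate 2 and Mdr2-KO/IL6-KO replicate 2 lay below every WT array for 7 of 8 genes, and the other knockout arrays for 5 or 6.

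The range over the 11 arrays was 1.24 to 1.73 log2 units for Serpina3n, Serpina10, Serpina6 and Serpina7, and 0.20 to 0.57 for the other four genes. For each of the 4 genes with the wider range, the most similar genes were taken as those with the smallest root mean square difference over the 11 arrays after centring each gene on its mean. Nearest to Serpina3n were Steap4, a metalloreductase listed here among the acute-phase genes (0.133 log2 units), Il13ra1, a receptor chain for interleukins 4 and 13 (0.148), and B3galt1 (0.192). The median over all genes was 0.572. Il13ra1 read 7.63, 7.61, 7.51 and 7.53 in Mdr2-KO/IL6-KO, 8.21, 7.74, 8.26 and 7.98 in Mdr2-KO, and 8.79, 8.59 and 8.70 in WT livers, so its groups did not overlap. It was picked for its likeness to Serpina3n on these same arrays, so this adds no separate support. Nearest to Serpina10 were the secreted acute-phase glycoprotein Lrg1 (0.119), the fibrinogen alpha chain Fga (0.142) and Slc37a1 (0.149), against a median over all genes of 0.463.

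The gene nearest to Serpina6 was another serpin, Serpina11 (0.167), from the same stretch of chromosome 12. It was followed by the sialyltransferase St6gal1 (0.185) and the secreted hepatocyte protein Fetub (0.190), with a median over all genes of 0.435. The genes nearest to Serpina7 were less close relative to the other genes: Snapc1 (0.203), the chemokine Cxcl11 (0.204) and Vnn1 (0.209), with a median of 0.414. These genes share arrays and normalization with the serpins, and the differences are descriptions with no test.

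**Figure D3:**
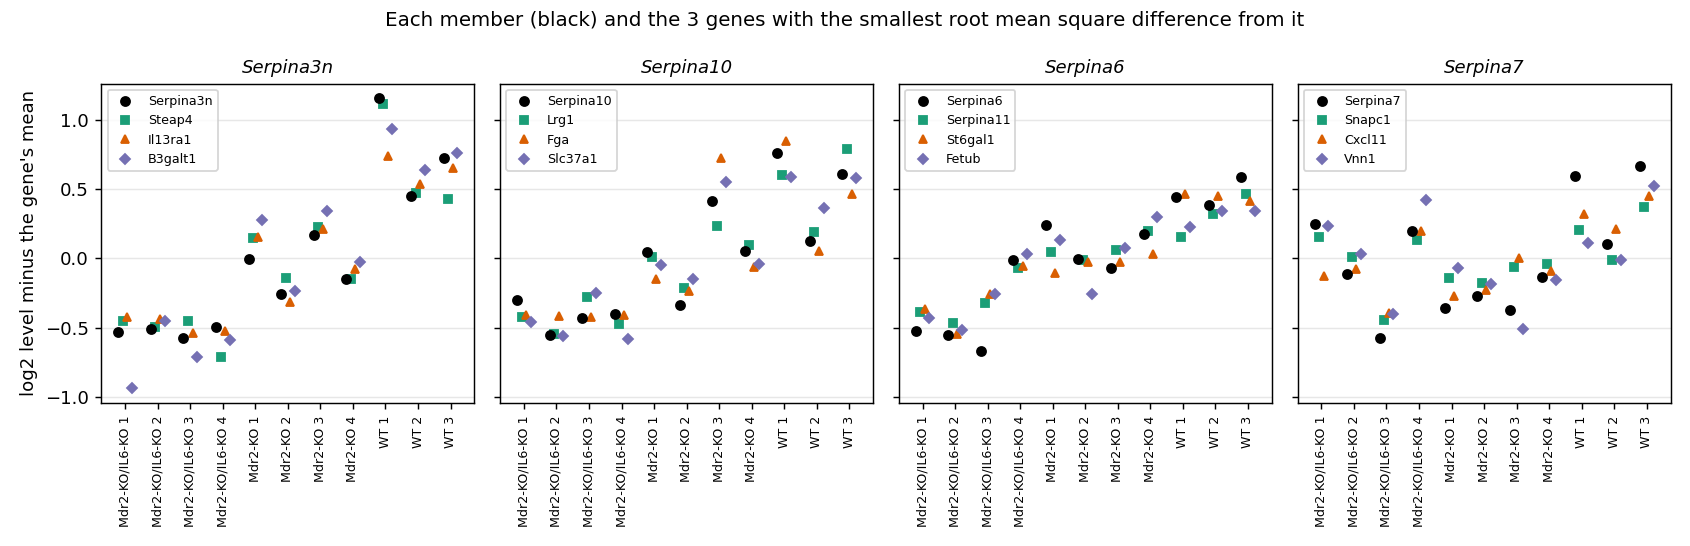
Log2 level minus the gene's own mean over 11 arrays (y axis) for each array (x axis), for 4 serpins in black and the 3 genes nearest to each. The Serpina3n panel runs lowest in all Mdr2-KO/IL6-KO arrays and highest in all WT arrays, and the Serpina7 panel has Mdr2-KO/IL6-KO replicate 3 as its lowest point.

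Position along the genome was not used to choose the genes. Serpina3n, Serpina10 and Serpina6 lie on chromosome 12 and the other 5 lie on 5 other chromosomes. In RefSeq, 23 protein-coding genes run from Serpina10 to Serpina3n and all 23 are named serpins. On this stretch 14 serpins had a probe set of their own, among them the pseudogene Serpina4-ps1, which is not one of the protein-coding genes. Those called in Mdr2-KO/IL6-KO against WT were the 3 described genes and Serpina11, which fell 1.54-fold (log2 change -0.62 ± 0.11 SE, limma adjusted p = 0.00536). Serpina11 read 7.18 to 7.58 in Mdr2-KO/IL6-KO, 7.63 to 7.85 in Mdr2-KO and 7.80 to 8.11 in WT livers, and it did not pass in Mdr2-KO against WT (log2 change -0.24, limma adjusted p = 0.497). Serpina12, which encodes the adipokine vaspin and sits among them, had a log2 change of 0.26 in Mdr2-KO/IL6-KO against WT. Serpina1c and Serpina1d, copies of alpha-1-antitrypsin, had changes of -0.078 and -0.44 there. Their sequences are near-identical and their probe sets may share signal. The pseudogene Serpina4-ps1 had a change of -0.99 ± 0.61 SE with arrays from 6.91 to 8.54 in Mdr2-KO/IL6-KO and 8.33 to 9.26 in WT livers, an SD of 1.44 in Mdr2-KO, and an adjusted p of 0.515 by limma.

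**Figure D4:**
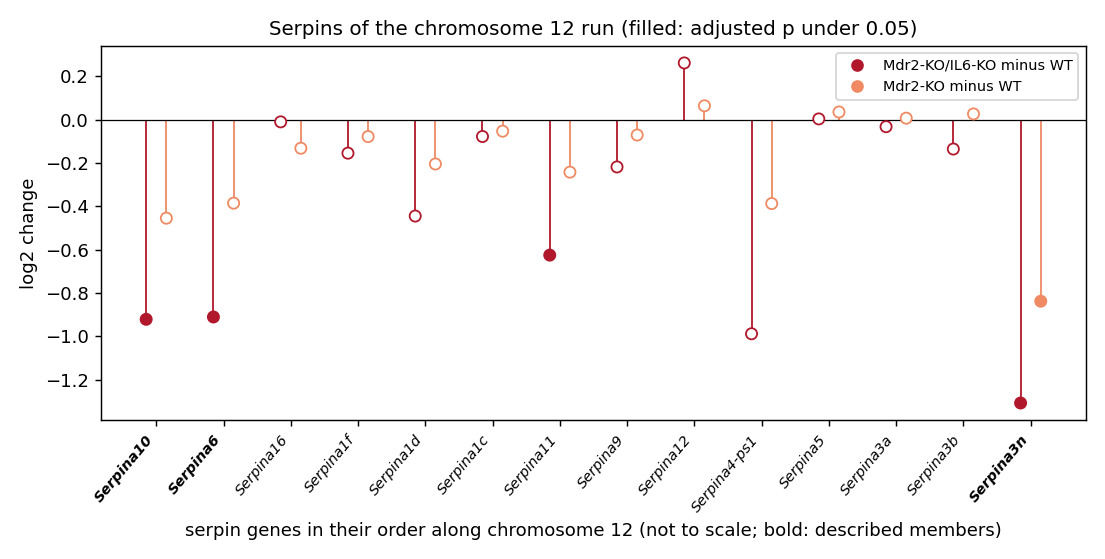
Log2 change against WT (y axis) of the 14 measured serpins of the chromosome 12 run in their order along the chromosome (x axis, not to scale), with filled points for an adjusted p under 0.05. Filled points stand at Serpina10, Serpina6, Serpina11 and Serpina3n, and the open point of Serpina4-ps1, at -0.99, did not pass.

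Beyond the 8, a further 40 serpins had a probe set of their own, and their median log2 change was 0.057 in Mdr2-KO/IL6-KO against WT, 0.026 in Mdr2-KO against WT and 0.021 between the knockout groups. Of these, 1 fell and 2 rose in Mdr2-KO/IL6-KO against WT, where 1.28% of all genes were called lower and 2.91% higher. In the other comparisons limma called 0 of the 40. The one that fell was Serpina11. Serpinb6b, an intracellular serpin, rose 1.97-fold (limma adjusted p = 0.0163), with levels of 6.47 to 6.77 in Mdr2-KO/IL6-KO against 5.59 to 5.71 in WT livers. Serpinh1, the collagen chaperone HSP47, rose 1.39-fold (limma adjusted p = 0.0424). In Mdr2-KO against WT Serpinb6b had a log2 change of 0.86 (limma adjusted p = 0.0682) and spread from 5.94 to 7.11 in Mdr2-KO. Of the markers of stellate cells, which make collagen, 6 of 12 rose in Mdr2-KO/IL6-KO against WT. The same 6 rose in Mdr2-KO against WT, where 0.948% of all genes were called higher. Serpinh1 was not called in the second of these comparisons (log2 change 0.27, limma adjusted p = 0.48). The part of stellate cells in the Serpinh1 value was not tested.

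The proteases that these serpins inhibit were read from lists. Over all genes 1.28% were called lower and 2.91% higher in Mdr2-KO/IL6-KO against WT. In Mdr2-KO against WT these shares were 0.316% and 0.948%. Of 15 coagulation proteases and cofactors measured, 1 fell and none rose in Mdr2-KO/IL6-KO against WT, and limma called 0 in the other comparisons. That gene was Kng1, which encodes kininogen and fell 1.26-fold (limma adjusted p = 0.0318). In the plasminogen system 1 of 6 rose and 1 of 6 fell in each comparison with WT. Plat, tissue plasminogen activator, rose 2.24-fold in Mdr2-KO/IL6-KO (limma adjusted p = 0.000222) and 1.80-fold in Mdr2-KO (limma adjusted p = 0.00531), while the protease Hgfac, which activates hepatocyte growth factor, fell 1.52-fold (0.0053) and 1.82-fold (0.0012) in the same order. Plat read 6.13, 6.37, 6.10 and 6.24 in Mdr2-KO/IL6-KO, 5.76, 5.83, 6.09 and 5.90 in Mdr2-KO, and 5.17, 4.73 and 5.25 in WT livers, with no overlap between any of the groups. Between the knockout groups, where 2.51% of all genes did not overlap, Plat was not called (log2 change 0.31, limma adjusted p = 0.9995). Among 11 genes of the classical and lectin complement pathways 1 fell in Mdr2-KO/IL6-KO against WT. It was C4b, down 1.67-fold (limma adjusted p = 0.000466), which shares sequence with its near-identical copy C4a. Of 11 genes on the leukocyte granule list 3 fell in that comparison, namely Prtn3 2.97-fold (limma adjusted p = 0.00014), Gzma 1.52-fold (0.0412) and Gzmb 1.71-fold (0.0495). In Mdr2-KO against WT 1 fell, Prtn3 by 1.99-fold (limma adjusted p = 0.00853). Gzma read 3.15 to 3.66 in Mdr2-KO/IL6-KO and 4.39, 3.84 and 3.74 in WT livers. Gzmb read 3.95 to 4.19 in Mdr2-KO/IL6-KO and 5.45, 4.52 and 4.51 in WT livers. Apart from Gzmb on WT replicate 1, these values lay below the array medians of 5.09 to 5.23. Of lymphocyte and neutrophil markers (10 of 12 measured) 1, Cd8a, fell in Mdr2-KO/IL6-KO against WT, with summed log2 levels of 42.2 to 43.7 in Mdr2-KO/IL6-KO, 43.0 to 45.9 in Mdr2-KO and 42.6 to 48.5 in WT livers. The part of these cells in the granule protease values was not tested.

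Genes that act with the hormones carried by Serpina6 and Serpina7 were mostly not called. Over all genes 1.28% were called lower in Mdr2-KO/IL6-KO against WT. Of 12 glucocorticoid axis genes 1 fell in that comparison. This was Hsd11b1, which regenerates active corticosteroid inside hepatocytes and fell 1.64-fold (limma adjusted p = 0.00239), and in Mdr2-KO against WT its log2 change was -0.46 (limma adjusted p = 0.0698). The median of the list was 0.22 in the first of these comparisons and 0.052 in the second. Of 12 thyroid hormone axis genes limma called 0 in each of the 3 comparisons, with medians of 0.014, -0.0050 and 0.030. The genes with the lowest p in that list were the receptor gene Thra in Mdr2-KO/IL6-KO against WT (log2 change 0.31, limma adjusted p = 0.24), Me1 in Mdr2-KO against WT (-0.33, limma adjusted p = 0.332) and Hr between the knockout groups (0.21, limma adjusted p = 0.9995).

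Other acute-phase genes and their regulators were read beside the serpins. Of 26 non-serpin acute-phase proteins, 15 fell and none rose in Mdr2-KO/IL6-KO against WT, 4 fell in Mdr2-KO against WT and 1 fell between the knockout groups. Over all genes 1.28%, 0.316% and 0.00502% were called lower in these comparisons. The gene lists were chosen with earlier results of these data known. The 26 had median log2 changes of -0.70, -0.34 and -0.48. The gene called in all of these comparisons was Fgl1, a secreted fibrinogen-like protein, which fell 9.37-fold, 2.44-fold and 3.84-fold (limma adjusted p = 1.68e-06, 0.00531 and 0.00107). Itih4, an inter-alpha-trypsin inhibitor chain, fell 2.05-fold in Mdr2-KO/IL6-KO and 1.41-fold in Mdr2-KO against WT, and the metallothionein Mt1 fell 8.51-fold and 3.99-fold. The fourth gene called in Mdr2-KO was the related Mt2. Of the 26, 22 had a negative log2 change in Mdr2-KO/IL6-KO against WT and 4 a positive one. The largest positive change was 2.73 for Hamp, which was not called (limma adjusted p = 0.0568). Hamp read 11.25 to 11.63 in Mdr2-KO/IL6-KO and 6.10 to 10.30 in WT livers, without overlap. Of 18 hepatocyte transcription factors and interleukin 6 signalling genes 4 fell in Mdr2-KO/IL6-KO against WT and limma called 0 in the other comparisons. Stat3, which carries the interleukin 6 signal, fell 2.05-fold (limma adjusted p = 0.000738), Foxa3 1.55-fold (limma adjusted p = 0.00583) and the bile acid receptor gene Nr1h4 1.36-fold (limma adjusted p = 0.0189). The fourth was the leukaemia inhibitory factor receptor gene Lifr. Stat3 read 8.37, 8.53, 8.61 and 8.56 in Mdr2-KO/IL6-KO, 9.18, 8.74, 9.34 and 8.995 in Mdr2-KO, and 9.67, 9.65 and 9.34 in WT livers, with Mdr2-KO replicate 3 level with the lowest WT array. Of 12 hepatocyte markers 1 fell in Mdr2-KO/IL6-KO against WT, the fatty acid binding protein Fabp1, and the median of the list was -0.10.

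**Figure D5:**
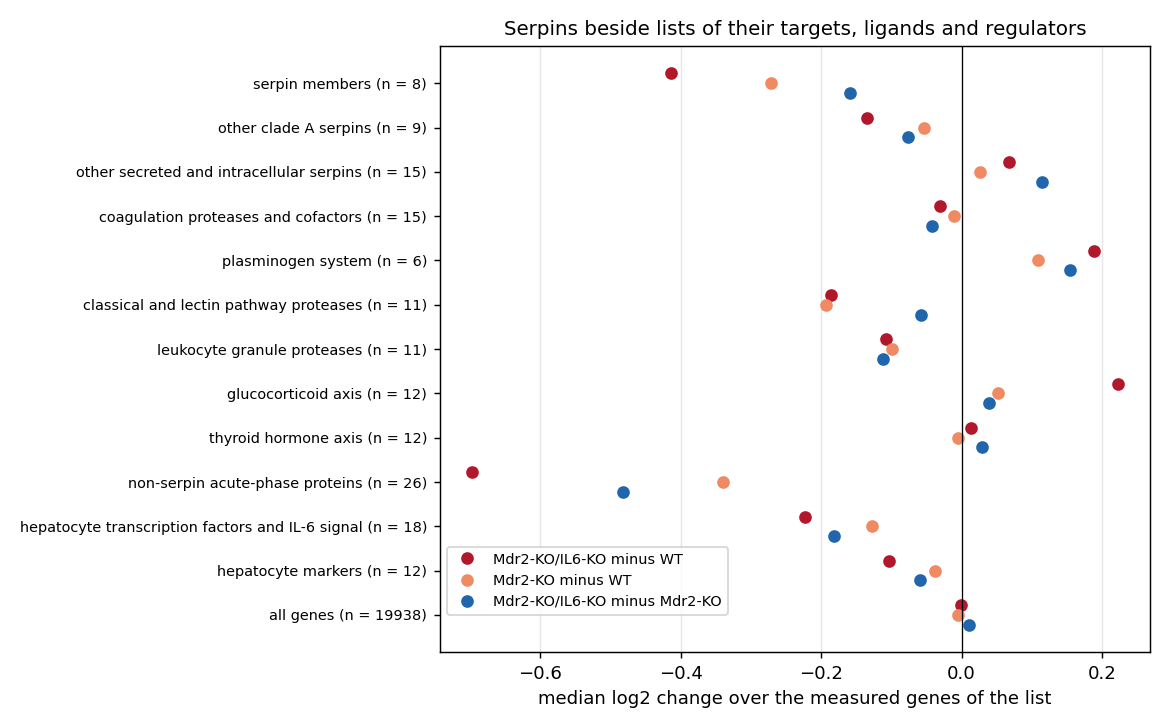
Median log2 change (x axis) over the measured genes of each list, in 3 comparisons. The serpins, at -0.41, -0.27 and -0.16, and the other acute-phase proteins, at -0.70, -0.34 and -0.48, lie left of 0 in all comparisons, as do the other clade A serpins, the coagulation, classical and lectin pathway and leukocyte granule lists, the hepatocyte transcription factors and the hepatocyte markers. All genes together lie within 0.01 of 0.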

How the data were processed

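The authors deposited log2 levels for 35557 probe sets on 11 arrays. Per the submitters' processing notes, RMA and Partek were used, with versions and settings not given in the sources used here. These levels were used without further normalization. RMA levels are relative and limited by background at the low end, and the number of arrays limits the precision. Gene names came from the array platform's annotation, with symbols updated by Entrez ID against RefSeq (19856 of 19938 genes matched). A probe set annotated to several genes was left out (1621), as was one with no symbol (12147), and the brightest represented a gene with several.

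limma 3.58.1 in R 4.3.3 fitted 1 mean per group with eBayes, two-sided, and Benjamini-Hochberg adjustment over all genes, after being tested on simulated data. Intervals are 95% and from that fit. The labels give no batch or pairing, and replicates were numbered in sample order. The serpins and gene lists were chosen with earlier results of these data known, so list counts and medians carry no test of their own. Named beyond the serpins were up to 3 called genes of a list by lowest p, otherwise the 1 with the lowest p, and the 3 genes most like each serpin spanning at least 1 log2 unit. Alternatives changed the probe set rule, a filter on dim genes, normalization, variance model, array weights, groups fitted, threshold and arrays.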

Additional observations from a re-analysis of the deposited data

How the results depend on the processing

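The count of serpins called in Mdr2-KO against WT, 1, was 0 in the unmoderated model, 0 when only the 2 groups were fitted and 0 at an adjusted p under 0.01; it was 2 with array weights, where Serpina7 joined Serpina3n, and 1 to 2 when single arrays were left out. The count in Mdr2-KO/IL6-KO against WT was 2 to 4 over the 11 other settings, and 3 whenever 1 array was left out. Between the knockout groups it was 0 throughout. The sign of Serping1 in Mdr2-KO against WT turned to 0.0068 without Mdr2-KO arrays 2 and 3, a setting chosen after seeing the data. That of Serpinc1 between the knockout groups ran from -0.043 to 0.011 when single arrays were left out. None of these was called. The cause was not tested. Over all genes, the 252 called in Mdr2-KO against WT became 43 in the unmoderated model, 138 with only the 2 groups, 94 at an adjusted p under 0.01 and 410 with array weights, and 149, 148 and 163 without WT replicate 1, 2 or 3. The 836 called in Mdr2-KO/IL6-KO against WT became 496, 342 and 1341 in the unmoderated model, at an adjusted p under 0.01 and with array weights, 445 at a fold of at least 1.5, and 464 to 535 without any 1 WT array or Mdr2-KO/IL6-KO replicate 1, with 551 without replicate 3. The 1 gene called between the knockout groups became 0 to 6, with 5 without Mdr2-KO replicate 3 and 2 when WT array 1, array 2 of Mdr2-KO, or array 3 or 4 of Mdr2-KO/IL6-KO was left out. No paired analysis was possible because the labels give no replicate numbers shared between groups. Array signal has no counting depth, and the number of arrays limits the precision.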

Other observations

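Some serpin probe sets name several genes and entered no comparison. Of the 53 probe sets that name a serpin, 5 name more than 1 gene. Both of those for the 5 Serpina1 copies of alpha-1-antitrypsin, the main inhibitor of neutrophil elastase in plasma, were lower in the knockout groups on average. Probe set 10402399 read 12.22 to 12.42 in Mdr2-KO/IL6-KO, 12.25 to 12.53 in Mdr2-KO and 12.47 to 12.57 in WT livers. Probe set 10402409 read 12.79 to 12.96, 12.86 to 13.07 and 13.06 to 13.15 in the same groups. On both, every Mdr2-KO/IL6-KO array lay below every WT array, with means of 12.34 against 12.51 and 12.90 against 13.10, and the Mdr2-KO arrays overlapped both other groups. Among all genes with a probe set of their own, 6.44% lay lower without overlap in Mdr2-KO/IL6-KO against WT. No test was made, and which of the copies gave the signal cannot be told. The other 3 name Serpinb9 copies and read 2.12 to 3.24 on all arrays, near the bottom of the scale.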
